A study of Mus musculus with 6 samples.

Results

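The genes examined here are 10 negative feedback genes of the ERK (extracellular signal-regulated kinase) pathway in mouse bone marrow neutrophils. They are the dual-specificity phosphatase genes Dusp6, Dusp1, Dusp2, Dusp3, Dusp5 and Dusp7, the Sprouty genes Spry1 and Spry2, and the Spred genes Spred1 and Spred2, each found by its symbol on 1 of the 52636 rows of the deposited expression table. The set was drawn up because Dusp6 was lower in the 3 libraries labelled LRP5-null than in the 3 labelled WT. The difference of Dusp6 is therefore given as a description with no test. The other members were listed for their family, with results of these data already known.

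RNA was sequenced in 6 libraries of primary neutrophils from mice of strain C57BL/6N aged 10 weeks. The WT group holds replicates 1 to 3 of wild-type mice, and the LRP5-null group holds replicates 1 to 3 of LRP5f/f/Lyz2Cre+ mice, which carry floxed Lrp5 alleles and a Cre recombinase. The Cre is driven from Lyz2, a lysozyme gene of neutrophils, monocytes and macrophages, so deletion is not limited to neutrophils. No group was treated, and whether each library is 1 mouse or a pool is not given in the sources used here, so p-values measure the spread between these libraries. Levels are in TPM, a unit scaled by the authors to transcript length and to the total of each library, so levels of different genes can be set side by side.

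The kinases RAF, MEK and ERK, which act in turn, carry signals from receptors and RAS to the nucleus, and ERK then induces genes that shut the pathway down again. The dual-specificity phosphatases remove the activating phosphates from ERK or related MAP kinases, while Sproutys and Spreds act at the level of RAS and RAF. In neutrophils the pathway is fed by chemoattractant receptors and by receptors for colony-stimulating factors. Because several of these brakes are themselves induced by ERK, their transcripts are often used as a readout of pathway output. Transcript levels do not measure ERK activity itself. By Western analysis, the paper reported no effect of LRP5 loss on ERK phosphorylation in bone marrow neutrophils.

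The bases just before the start of transcription are shown for the 3 members of highest level, since induction by ERK acts through such regions. The sequences are from RefSeq (GRCm38.p6), where all 10 members matched an entry, and run 5′ to 3′ on the strand of the gene over 250 bases that end 1 base before the start. They lie at chr10:99262981-99263230 on the plus strand, chr17:26508473-26508722 on the minus strand and chr19:53528895-53529144 on the plus strand. Capitals mark matches to the searched motifs, of which Dusp1 holds a cAMP response element and Dusp5 a pair of adjoining CArG boxes, the motif bound by serum response factor.
Dusp6: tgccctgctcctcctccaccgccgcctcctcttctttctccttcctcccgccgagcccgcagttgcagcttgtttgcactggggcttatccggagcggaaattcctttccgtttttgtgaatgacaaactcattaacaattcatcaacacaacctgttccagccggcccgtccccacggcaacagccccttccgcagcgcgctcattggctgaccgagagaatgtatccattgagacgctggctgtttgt
Dusp1: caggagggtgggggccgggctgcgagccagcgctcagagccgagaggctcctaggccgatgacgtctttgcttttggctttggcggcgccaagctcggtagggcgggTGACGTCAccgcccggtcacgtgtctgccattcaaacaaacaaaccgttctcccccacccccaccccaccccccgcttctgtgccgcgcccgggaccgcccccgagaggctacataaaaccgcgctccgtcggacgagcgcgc
Dusp5: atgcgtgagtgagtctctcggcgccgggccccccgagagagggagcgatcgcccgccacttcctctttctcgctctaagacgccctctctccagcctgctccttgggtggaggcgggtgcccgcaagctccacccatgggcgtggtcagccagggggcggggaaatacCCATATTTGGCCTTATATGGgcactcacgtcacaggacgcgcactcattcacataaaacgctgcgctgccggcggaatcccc
Both strands were searched for 6 motifs, the cAMP response element TGACGTCA, its core TGACG, the AP-1 motif TGANTCA, the ETS motif CCGGAAG, the TATA box TATAAA and the CArG box. Over all 32851 promoter windows of this length, 1.55% held the cAMP response element, 6.75% the AP-1 motif, 6.91% the ETS motif, 12.4% the TATA box and 1.47% the CArG box. The element in Dusp1 lay 143 to 136 bases before the start, and the boxes in Dusp5, CCATATTTGG and CCTTATATGG, lay 82 to 73 and 72 to 63 bases before it. The core, which is part of the full element and is held by 17.8% of windows, was found in Dusp1, Dusp5 and Spred2 and is not marked. The window of Dusp6 held no match to any of these letters. A match is a description of the sequence and not a bound site.

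Neutrophil marker genes were at high levels in each library, with S100a9, a calcium-binding protein of the neutrophil cytosol, at 195191 to 230639 TPM. Ly6g, the surface antigen used to define mouse neutrophils, was between 920.2 and 1104 TPM. The 10 neutrophil markers summed to 355528 to 404505 TPM under the WT label and 387759 to 412312 TPM under the LRP5-null label (exact permutation test, two-sided, p = 0.6). Lrp5, the targeted gene, lies at chr19:3584825-3686564 in NCBIM37. It was at 1.12, 1.31 and 1.42 TPM in the libraries labelled WT and at 1.68, 1.77 and 2.07 TPM in those labelled LRP5-null. The targeted transcript was thus not lower under the knockout label, and all directions rest on the labels. A level summed over the gene cannot show whether the floxed part was lost. Lyz2, the gene that carries the Cre, was at 25963 ± 1039 TPM in the libraries labelled WT and fell to 13792 ± 375 TPM (SD, n = 3 each) in those labelled LRP5-null (limma adjusted p = 0.00351). Between 206524690 and 288073020 reads per library were uniquely aligned, but depth cannot be recovered from TPM, so no counting error is given for single genes. Ribosomal RNA took 1.20% of reads in WT replicate 1 and 1.30% in WT replicate 2, but 3.30% in WT replicate 3, while the libraries labelled LRP5-null ranged from 2.69% to 2.98%. Over 8769 genes, the level of a gene relative to its mean over the libraries correlated with the GC content of its transcript at a Spearman coefficient of −0.61 in WT replicate 1 and −0.43 in WT replicate 2. In WT replicate 3 the coefficient was 0.37, and in the libraries labelled LRP5-null it was 0.33 to 0.44. WT replicates 1 and 2 thus stood apart from the other 4 libraries on both measures. For the tested members, values against WT replicate 3 alone are therefore given where they turn a direction or move a value by over 1.5 times. For the genes of the pathway lists such values are not given, so how far their differences rest on WT replicates 1 and 2 is not shown.

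Dusp1 was the highest in each library, followed by Dusp6, Dusp5, Spred2 and Dusp7 in the same order in each of the 6 libraries. Dusp2 and Spry2 had overlapping ranges and changed places in WT replicate 1. Spred1, Dusp3 and Spry1 were below 1 TPM in every library. Among the 9775 genes averaging 1 TPM or more, Dusp1 had a higher mean level than 98.9% and Dusp6 than 96.0%, while Spry2 exceeded 19.3%. Most of the members' summed level thus came from Dusp1 and Dusp6, which made up 69.3% ± 1.04 and 25.2% ± 1.45 (SD, n = 3 each) of the summed TPM of the members in the libraries labelled WT.

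**Figure D1:**
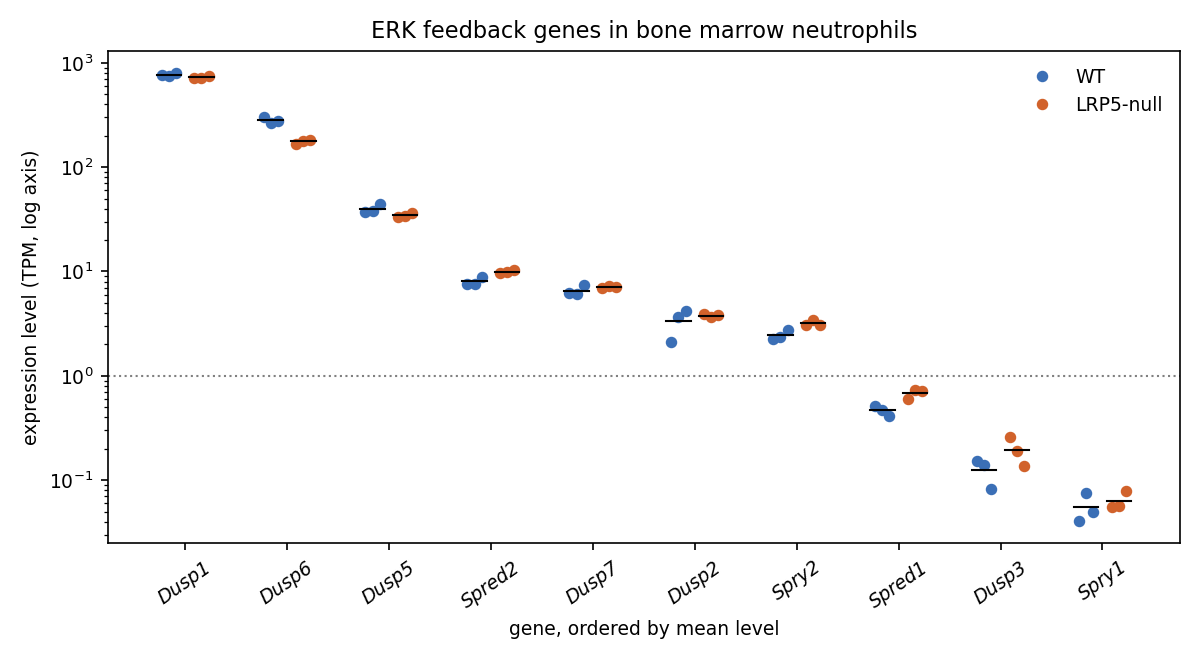
Level of each member in TPM (log axis) in the libraries labelled WT (blue) and LRP5-null (orange), replicates 1 to 3 from left to right, with bars at the group means and a dotted line at 1 TPM. Dusp1 stood highest, and Spred1, Dusp3 and Spry1 lay below the line in all libraries.

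Dusp6 encodes a cytoplasmic phosphatase that acts selectively on ERK and is a direct product of ERK signaling in many cells. The gene, ENSMUSG00000019960.8, is protein-coding and lies at chr10:98725865-98730122 on the plus strand of NCBIM37, with 3 exons in its longest coding transcript. Lyz2, the gene that carries the Cre, lies on the same chromosome, at chr10:116714390-116719377. The part of this location in the difference of Dusp6 was not tested. The level of Dusp6 was 299.8, 262.2 and 277.4 TPM in WT replicates 1 to 3 and 167.9, 177.8 and 182.9 TPM in LRP5-null replicates 1 to 3. The groups did not overlap, and the lowest WT library stood well above the highest library labelled LRP5-null. The means were 279.8 ± 18.9 and 176.2 ± 7.61 TPM (SD, n = 3 each), so that the level under the LRP5-null label was 63.0% of the WT mean. On the scale of log2(TPM + 1) the difference, LRP5-null minus WT, was −0.66 (standard error 0.074).

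The groups did not overlap, so leaving out a library could not turn the direction of this difference, for which the set was chosen. Its range is a description and no support for it. This difference varied little with the way the values were handled. It was between −0.71 and −0.61 when each library was left out in turn, −0.65 against WT replicate 3 alone, and −0.66 with the ribosomal RNA share of reads as a covariate. Median-ratio scaling gave −0.74, and removal of the trends of each library with GC content and transcript length gave −0.67.

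Ratios of 2 transcripts within a library do not depend on the scaling of that library. Per transcript of Dusp1 there were 0.395, 0.349 and 0.349 transcripts of Dusp6 in the WT libraries, against 0.236, 0.251 and 0.245 under the LRP5-null label. Per transcript of Mapk3, the gene of ERK1, the ratio was 0.977 ± 0.087 and 0.632 ± 0.056 (SD, n = 3 each), again without overlap. Per transcript of Dusp5 it was 7.08 ± 0.97 in the libraries labelled WT and 5.09 ± 0.13 in those labelled LRP5-null (SD, n = 3 each). Dusp6 thus made up 18.4% ± 0.44 (SD, n = 3) of the members' summed TPM under the LRP5-null label, and Dusp1 75.4% ± 0.47 (SD, n = 3). These ratios show unequal change of the paired transcripts and contain the difference by which the set was chosen.

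The genes whose profile was nearest to that of Dusp6 were Arhgef3, Gbp2, Usp9x, Phf3 and Fam71b. Nearness was taken as the root mean square difference of log2(TPM + 1), centred for each gene, over the 6 libraries. It was 0.034 for Arhgef3, which encodes an exchange factor for RhoA, and 0.064 to 0.080 for the others. Arhgef3 was at 137.7, 124.6 and 123.2 TPM in the libraries labelled WT and at 75.9, 78.5 and 83.3 TPM in those labelled LRP5-null. Gbp2, an interferon-inducible GTPase gene, was at 33.9 to 38.9 TPM in the libraries labelled WT and at 23.6 to 23.9 TPM in those labelled LRP5-null. The differences of Usp9x, Phf3 and Fam71b were −0.57, −0.54 and −0.59 on the log2 scale. The profile of Dusp6 holds the difference by which the set was chosen. That these nearest genes were lower under the LRP5-null label therefore follows from how they were picked and is not a finding. No other member was close to Dusp6 on this measure, the nearest being Dusp5 at 0.26 and Dusp1 at 0.29.

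The remaining members were compared in a fit across all 9775 genes tested with limma and Benjamini-Hochberg adjustment, in which 0.532% of genes had an adjusted p under 0.05 (0.266% in each direction). None of the 6 tested members other than Dusp6 had an adjusted p under 0.05, and at an unadjusted p under 0.05 there were 2, both higher, where 23.5% of all genes tested had such a p in either direction and 14.4% among the higher. Because the set was built on the same contrast, these counts describe the members and nothing is read from them. Of the 7 members tested, Dusp6 included, 3 had all values labelled LRP5-null below all WT values and 2 had them above, against 12.3% and 17.4% of all genes tested (29.7% in either direction).

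Dusp1 encodes a nuclear phosphatase of p38, JNK and ERK and is an immediate early gene. It lies at chr17:26642535-26645464 on the minus strand of NCBIM37. The levels were 759.4, 750.3 and 795.5 TPM in WT replicates 1 to 3 and 711.4, 709.6 and 747.4 TPM in LRP5-null replicates 1 to 3. The groups touched closely without overlapping. The difference was −0.09 on the log2 scale (standard error 0.058, 95% interval −0.22 to 0.05, limma adjusted p = 0.389). It turned to 0.011 with quantile normalization and was further from 0 with median-ratio scaling (−0.16, limma adjusted p = 0.118), with GC content and length trends removed (−0.19, limma adjusted p = 0.0630) and against WT replicate 3 alone (−0.14). An interval of this width leaves room for a small change in either direction.

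Dusp5 encodes a nuclear phosphatase selective for ERK. It lies at chr19:53603599-53616921 on the plus strand of NCBIM37. WT replicates 1 to 3 were at 36.8, 38.1 and 44.5 TPM and LRP5-null replicates 1 to 3 at 33.4, 33.96 and 36.6 TPM. The libraries labelled LRP5-null were the lower ones, by a narrow margin between the closest pair. The difference was −0.19 (standard error 0.090, 95% interval −0.40 to 0.02, limma adjusted p = 0.244). It passed the threshold once GC content and length trends were removed, at −0.30 (limma adjusted p = 0.0249), a setting in which 4.9% of genes were called. It was −0.11 without WT replicate 3, −0.35 against WT replicate 3 alone and −0.31 with the ribosomal covariate.

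Dusp7, a cytoplasmic relative of Dusp6 with the same preference for ERK, was at a far lower level. It lies at chr9:106270963-106278055 on the plus strand of NCBIM37. Its levels were 6.17, 6.07 and 7.38 TPM in the libraries labelled WT and 6.92, 7.20 and 7.05 TPM in those labelled LRP5-null. WT replicate 3 was the highest of all 6, so the groups overlapped. The difference was 0.10 (standard error 0.090, 95% interval −0.11 to 0.31, limma adjusted p = 0.527). It was 0.18 without WT replicate 3, 0.055 without WT replicate 2 and 0.065 without WT replicate 1. Median-ratio scaling gave 0.036 and quantile normalization 0.035, and the value was −0.058 against WT replicate 3 alone, −0.020 with GC and length trends removed and −0.0077 with the ribosomal covariate.

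Dusp2, a nuclear phosphatase gene of activated immune cells, varied most among the WT libraries. It was at 2.12, 3.64 and 4.22 TPM in WT replicates 1 to 3 and at 3.88, 3.65 and 3.82 TPM in LRP5-null replicates 1 to 3. The WT values enclosed those labelled LRP5-null, with a coefficient of variation of 32.7% against 3.16%. The difference of 0.18 (standard error 0.18, limma adjusted p = 0.572) became −0.041 without WT replicate 1 and 0.33 without WT replicate 3. It was 0.091 with quantile normalization, 0.032 with GC and length trends removed, −0.033 with the ribosomal covariate and −0.13 against WT replicate 3 alone. Dusp3, a small phosphatase gene whose product lacks the docking domain of the other members, was at 0.15, 0.14 and 0.083 TPM in the libraries labelled WT and at 0.26, 0.19 and 0.14 TPM in those labelled LRP5-null. The groups overlapped, and the level lay below the filter for testing.

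Spry2 encodes an adaptor-binding inhibitor that acts between receptors and RAF. It lies at chr14:106291166-106296036 on the minus strand of NCBIM37. The levels were 2.25, 2.37 and 2.73 TPM in WT replicates 1 to 3 and 3.09, 3.44 and 3.08 TPM in LRP5-null replicates 1 to 3. All libraries labelled LRP5-null stood above all those labelled WT, in the opposite direction to Dusp6. The difference was 0.29 (standard error 0.088, 95% interval 0.08 to 0.49, limma adjusted p = 0.139), and the scale understates the change of a gene this low.

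Spred2 encodes a membrane-bound inhibitor that brings neurofibromin, a RAS inactivator, to RAS. It lies at chr11:19824378-19924029 on the plus strand of NCBIM37. WT replicates 1 to 3 were at 7.61, 7.66 and 8.78 TPM and LRP5-null replicates 1 to 3 at 9.66, 9.82 and 10.2 TPM. The groups did not overlap, and the mean under the LRP5-null label was 124% of the WT mean. The difference was 0.28 (standard error 0.081, 95% interval 0.09 to 0.47, limma adjusted p = 0.132). Without WT replicate 3, Spry2 was called at 0.34 (limma adjusted p = 0.0370) and Spred2 at 0.34 (limma adjusted p = 0.0247), a setting in which 19.6% of all genes were called. Against WT replicate 3 alone the differences were 0.17 for Spry2 and 0.16 for Spred2.

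Spred1, the paralog of Spred2, was at 0.51, 0.47 and 0.41 TPM in WT replicates 1 to 3 and at 0.60, 0.73 and 0.71 TPM in LRP5-null replicates 1 to 3. Its groups did not overlap either, at levels below the filter. Without a filter its difference was 0.20 (standard error 0.057, limma adjusted p = 0.238). Spry1 was at 0.041 to 0.076 TPM in the libraries labelled WT and at 0.055 to 0.079 TPM in those labelled LRP5-null, close to the lower end of the table. The summed level of the Sproutys and Spreds was 11.0 ± 0.85 TPM in the libraries labelled WT and 13.9 ± 0.40 TPM in those labelled LRP5-null (SD, n = 3 each).

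**Figure D2:**
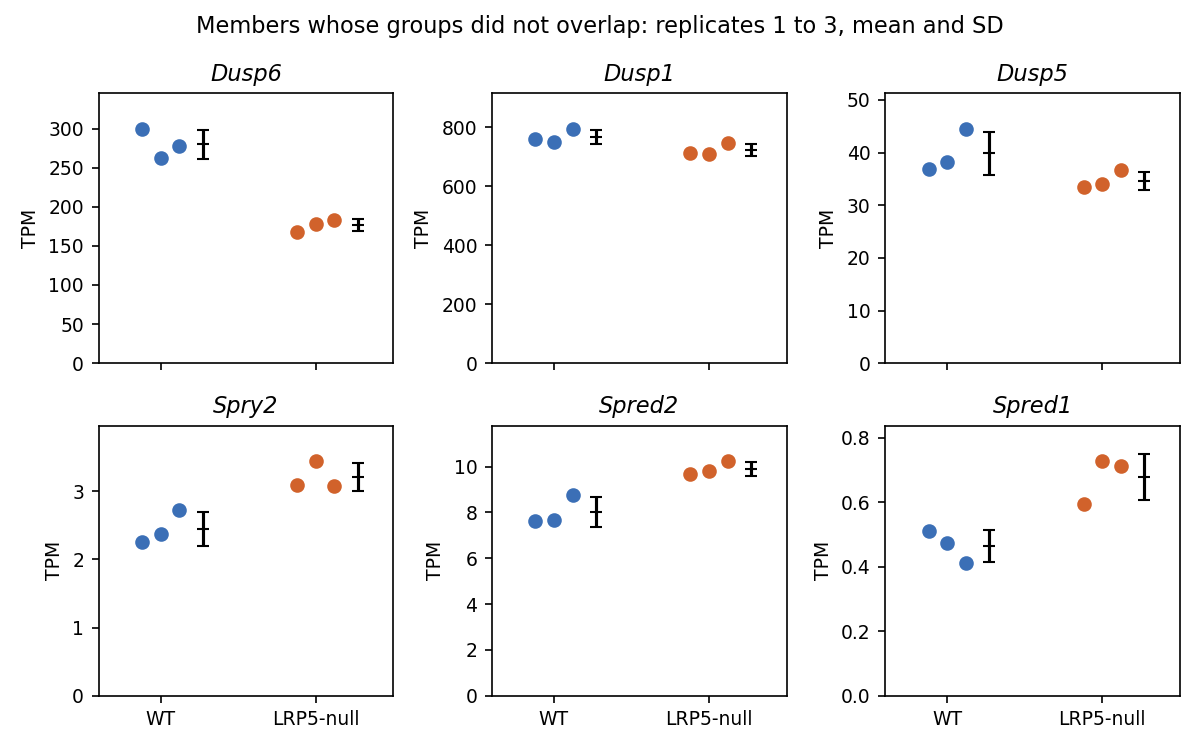
Levels in TPM (axes start at 0) of the 6 members whose groups did not overlap, with replicates 1 to 3 of each label as points and the mean with its SD as a bar beside them. Dusp6 was lower under the LRP5-null label by the widest margin, Dusp1 and Dusp5 were lower by narrow ones, and Spry2, Spred2 and Spred1 were higher.

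**Figure D3:**
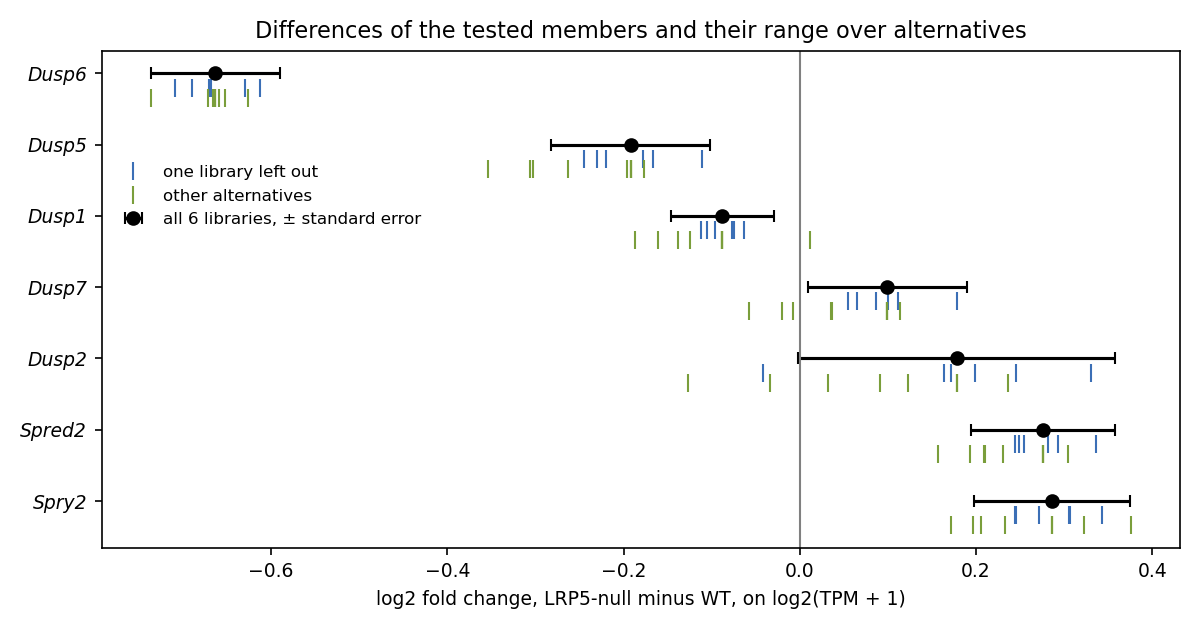
Difference on log2(TPM + 1), LRP5-null minus WT, of the 7 members tested, with its standard error (black), its values with 1 library left out (blue) and under the other alternatives (green). All values of Dusp6 lay between −0.74 and −0.61 and those of Dusp5 below 0, those of Spry2 and Spred2 lay above 0, and those of Dusp1, Dusp7 and Dusp2 fell on both sides.

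To place the members in their pathway, 100 other genes were taken from lists of its parts, of which 84 passed the filter of 1 TPM. No gene of these lists had an adjusted p under 0.05 in limma, where 0.532% of all genes did. At an unadjusted p under 0.05, 10 were higher under the LRP5-null label and 7 lower, where 14.4% and 9.12% of all genes tested were. The median difference of the 84 genes was 0.04 and equal at this precision to that of all genes tested, 0.04. Without WT replicate 3, 18 of the 84 were called, in a setting where 19.6% of all genes were. Among the genes named next, Fpr1, Shoc2, Araf, Dab2ip, Rps6ka5, Junb, Fosl2, Etv5 and Dusp16 were called there. By list, an unadjusted p under 0.05 was reached by 2 of 12 RAS and receptor brakes (both higher), 4 of 9 receptors (2 higher, 2 lower), 3 of 10 adaptors and RAS genes (1 higher, 2 lower) and 1 of 12 kinases and scaffolds of the RAF, MEK and ERK tiers (lower). It was reached by 0 of 14 kinases and factors under ERK, 4 of 17 genes induced by ERK (3 higher, 1 lower), 1 of 2 other MAP kinase phosphatase genes (higher) and 2 of 8 genes of p38 and JNK signaling (1 higher, 1 lower).

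Among receptors, Fpr1, a receptor for formylated bacterial peptides, had the smallest p of all 84 genes. It was at 769.9, 792.3 and 812.4 TPM in the libraries labelled WT and at 623.5, 629.6 and 665.6 TPM in those labelled LRP5-null (difference −0.31, standard error 0.059, limma adjusted p = 0.0675). The groups did not overlap, and Fpr1 was called with median-ratio scaling at −0.38 (limma adjusted p = 0.0340) and with GC and length trends removed at −0.28 (limma adjusted p = 0.0499). Kit, the receptor of stem cell factor, was at 5.86 to 7.29 and 7.30 to 8.21 TPM (difference 0.25, limma adjusted p = 0.181).

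Among the adaptors and RAS genes, Hras was at 5.81 to 6.71 and 7.11 to 8.05 TPM (difference 0.22, limma adjusted p = 0.183). Among the RAS and receptor brakes, Dab2ip, a RAS GTPase-activating protein gene, differed by 0.41 (limma adjusted p = 0.142) and Pebp1, the gene of a RAF inhibitor, by 0.36 (limma adjusted p = 0.159).

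Of the kinase tiers, Shoc2, a scaffold gene that promotes RAF activation, was at 57.4, 48.8 and 45.0 TPM in the libraries labelled WT and at 36.5, 37.5 and 38.8 TPM in those labelled LRP5-null. Its difference was −0.41 (standard error 0.097, limma adjusted p = 0.10), without overlap of the groups. It was called at −0.22 (limma adjusted p = 0.0462) with GC and length trends removed, where 4.9% of all genes were called, and at −0.48 (limma adjusted p = 0.0191) without WT replicate 3. Araf, a RAF kinase gene, differed by 0.18 (limma adjusted p = 0.261). Mapk3 (ERK1), a kinase that Dusp6 acts on, was chosen for mention by its role after its values were seen. It was at 271 to 310.0 and 258 to 317 TPM, with overlapping groups, and differed by −0.04 (limma adjusted p = 0.840). Among substrates of ERK, the kinase genes Rps6ka3 and Rps6ka5 differed by −0.36 and −0.20 (limma adjusted p = 0.241 and 0.292).

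Genes induced by ERK stood on both sides of 0. Of 17 tested, 11 were higher and 6 lower in mean, with a median difference of 0.06. Junb, an AP-1 subunit gene, was at 366.6, 403.5 and 425.2 TPM in the libraries labelled WT and at 469.1, 462.3 and 488.0 TPM in those labelled LRP5-null (difference 0.25, limma adjusted p = 0.129). Fosl2, another AP-1 subunit gene, differed by 0.30 (limma adjusted p = 0.153). Egr1 and Fos, which are induced within minutes of ERK activation, and Phlda1 and Etv5, which like Dusp6 follow later, were named for their role after their values were seen. Egr1 was at 114.0 to 124.6 and 119.0 to 129.8 TPM and Fos at 790.3 to 902.3 and 824.0 to 905.5 TPM. Their differences were 0.06 and 0.04 (limma adjusted p = 0.606 and 0.750), and those of Phlda1 and Etv5 were −0.07 and 0.28 (limma adjusted p = 0.618 and 0.178). Whether Dusp6 differed more than these genes was not tested, since Dusp6 was chosen for its difference.

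Of 8 other MAP kinase phosphatase genes, 6 had a mean below 1 TPM. Dusp16, whose product acts on JNK and p38, was at 1.53, 1.82 and 2.08 TPM in the libraries labelled WT and at 2.68, 2.43 and 2.48 TPM in those labelled LRP5-null (difference 0.33, limma adjusted p = 0.128). Ptpn7, a tyrosine phosphatase gene whose product binds ERK, was at 19.6 to 22.1 and 20.2 to 23.5 TPM (difference 0.06, limma adjusted p = 0.718). Spry3, Spry4 and Spred3 were below 0.05 TPM in every library, with Spry3 listed at 0. In the p38 and JNK arms, which Dusp1 also restrains, Mapk9 (JNK2) differed by 0.35 and Map2k4 by −0.17 (limma adjusted p = 0.152 and 0.204).

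**Figure D4:**
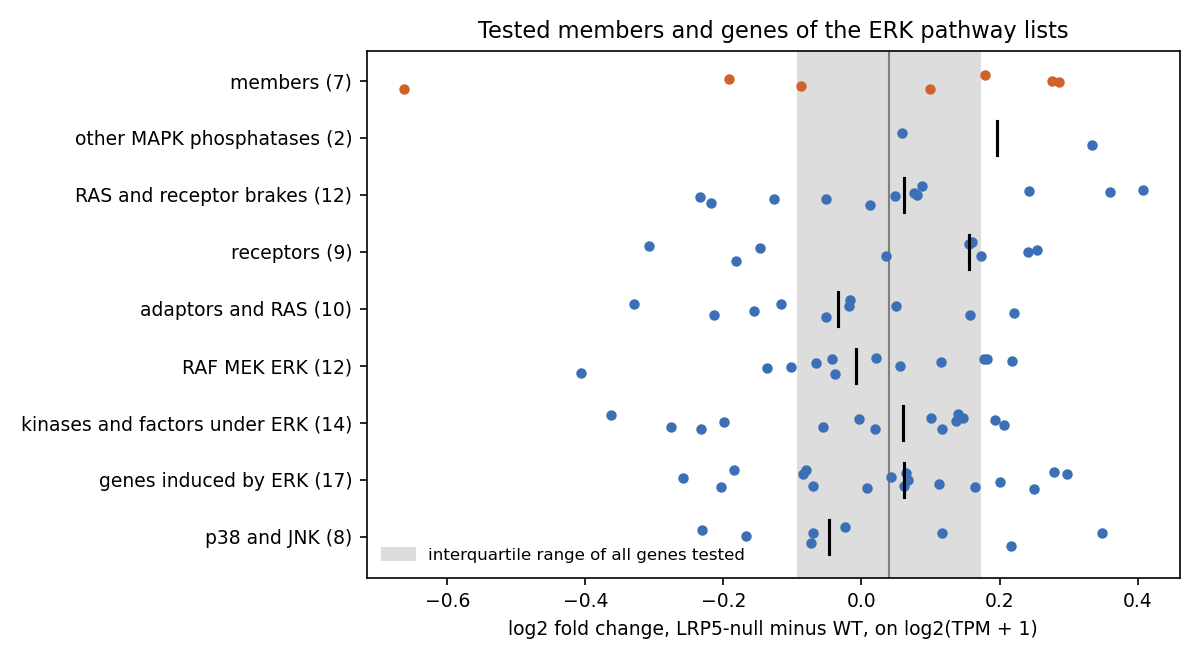
Difference on log2(TPM + 1), LRP5-null minus WT, of each tested member (orange) and each tested gene of the pathway lists (blue, number of genes in parentheses), with list medians as black bars and the interquartile range and median of all genes tested as a grey band and line. Dusp6 lay at −0.66, and the genes of the other lists lay between −0.41 and 0.41.

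Some markers of neutrophil maturity moved with the labels beside Dusp6, while the sums of their lists did not. Of 13 marker genes of immature neutrophils, 8 were higher under the LRP5-null label without overlap and 0 lower, and of 12 of mature neutrophils, Fpr1 among them, 6 were lower without overlap and 0 higher, where 17.4% and 12.3% of all genes tested were. The other genes of both lists overlapped between the labels, and some stood the other way in mean. Among these was Ngp, a granule gene and the most abundant of the immature list, at 34286 to 38041 TPM under the WT label and 31331 to 35078 TPM under the LRP5-null label. The summed level of the immature list was 62890 to 67868 TPM in the libraries labelled WT and 64699 to 67652 TPM in those labelled LRP5-null (exact permutation test, two-sided, p = 0.5). That of the mature list, led by Retnlg, was 34977 to 39926 and 35278 to 36458 TPM (exact permutation test, two-sided, p = 0.6). Retnlg alone was at 19359 to 22833 TPM over all libraries. Such sums mostly follow their most abundant genes and cannot show a shift of the lower ones. In whole-population RNA a smaller share of cells that express a gene and less RNA of it per cell cannot be told apart. The part of maturity in the difference of Dusp6 was not tested.

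The summed markers of other marrow cells were far below those of neutrophils. Not all were low, since Ly6c2 of the monocyte and macrophage list was at 512.9 to 664.3 TPM. The 8 B cell markers, led by Cd79b, summed to 12.03 to 13.7 TPM over all libraries, the 8 erythroid markers, led by Hbb-bs, to 42.2 to 57.0 TPM, and the 12 markers of monocytes and macrophages, led by Ly6c2, to 603.2 to 762.5 TPM. The ranges of these 3 sums overlapped between the labels (exact permutation test, two-sided, p = 0.5, 0.5 and 1). Those of 9 T and NK cell markers, at 11.6 to 13.7 and 16.04 to 17.7 TPM, and of 9 eosinophil and mast cell markers, at 11.4 to 13.8 and 14.5 to 15.6 TPM, did not overlap (exact permutation test, two-sided, p = 0.1 for each, the smallest p that 3 against 3 allow). Cd3d made up most of the T and NK sum, at 9.33 to 14.5 TPM, while the other genes of its receptor complex, Cd3e and Cd3g, and Cd4 and Cd8a stayed below 1 TPM in every library. Of the eosinophil and mast cell markers, 3 were higher under the LRP5-null label without overlap (Prg2, Epx and Ccr3) and 1 lower (Ms4a2). Prg2, the gene of eosinophil major basic protein, was at 0.85 to 1.16 and 2.33 to 3.13 TPM, while Siglecf, the most abundant of the list at 7.31 to 8.77 TPM, overlapped between the labels. Reads in introns made up 7.78% to 9.0% under the WT label and 10.6% to 11.2% under the LRP5-null label, and their part in the members' differences was not tested.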

How the data were processed

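The table of TPM deposited by the authors held 1 column for each of 6 libraries, 3 labelled WT and 3 labelled LRP5-null. Per the methods, the authors aligned reads to the mouse genome (mm9, the build called NCBIM37 here) and quantified them with the DESeq2 pipeline. The tool that gave TPM is not given in the sources used here. A read summary deposited by the authors gave counts of reads, shares of reads in percent and a ratio of coverage at the 3′ end of transcripts, which was not used further. The labels name a Percoll gradient and an mRNA kit, the methods a sort of CD11b and Ly6G double-positive cells and a stranded total RNA kit.

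Genes averaging 1 TPM or more were fitted on log2(TPM + 1) with limma 3.58.1 (R 4.3.3, mean-variance trend, no covariate), with Benjamini-Hochberg adjustment over all 9775 genes. This scale understates the change of low genes. The study's count model was not used because TPM holds no counts. Marker sums were compared by exact permutation. In simulated data (9775 genes, 200 changed), the fit recovered 39% of genes changed by 0.5 (log2), 87.5% changed by 1 and 99% changed by 2, with 4, 6 and 8 false calls. The simulated noise was independent between genes, with spreads shuffled across genes. It held no split of libraries like that of WT replicates 1 and 2, so these rates may not hold for the real libraries.

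The members and lists were chosen with earlier results of these data known. The text names all members, Lrp5 and Lyz2, the 5 genes nearest to Dusp6, the 2 genes of smallest p in each pathway list (every called gene, had there been any) and the most abundant gene of each marker list, except 1 gene of the pathway lists that is not reported here. Ly6g, the T cell genes beside Cd3d, the eosinophil and mast cell genes beside Siglecf, Spry3, Spry4 and Spred3 were named besides, after their values were seen. Gene positions are from GENCODE M1 (NCBIM37), whose identifiers matched those of the table without their version. GC content and length of the longest coding transcript covered 89.7% of genes tested. Alternatives were another pseudocount (0.1), no filter or 5 TPM, median-ratio and quantile scaling, no trend, leaving out 1 library, a block for the replicate number, the ribosomal share as a covariate, WT replicate 3 alone, and removal of GC and length trends.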

Additional observations from a re-analysis of the deposited data

How the results depend on the processing

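The difference of Dusp6, for which the set was chosen, lay between −0.74 and −0.61 in all 16 alternatives. Its groups did not overlap, so leaving out a library could not turn its direction. The count of called genes over all genes tested (52) was 3 without a filter, 29 with a filter of 5 TPM, 83 with median-ratio scaling (36.1% of them higher, against 50%), 6 with the ribosomal covariate, 6 against WT replicate 3 alone, 430 with GC and length trends removed (36.5% higher), and 2 to 1920 with each library left out, the most without WT replicate 3. Called members other than Dusp6 (0) became 1 with trends removed, which is Dusp5, and 0 to 2 with each library left out. Called pathway genes (0) became 1 with median-ratio scaling, 4 with trends removed and 0 to 18 with each library left out. Of all genes tested, 0.849% were called with median-ratio scaling, 4.9% with trends removed and 19.6% without WT replicate 3. Nothing about the members or the pathway is read from these counts. Directions turned for Dusp1 (0.011 with quantile normalization), for Dusp2 (−0.033 with the ribosomal covariate, −0.13 against WT replicate 3 alone, −0.041 to 0.33 with each library left out) and for Dusp7 (−0.0077 with the covariate, −0.020 with trends removed, −0.058 against WT replicate 3 alone). The fit against WT replicate 3 alone assumes that library to vary like the others. The cause of these changes was not tested.

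The replicate number as a block gave 4 called genes and 0 called members. Deviations of libraries with the same number correlated across genes at 0.23, −0.0075 and 0.13, against −0.21 to 0.083 for libraries with different numbers. WT replicate 2 did not correlate best with its own number. Whether libraries of the same number share more than the number cannot be told from these values.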

Other observations

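Some pathway genes split the libraries by something other than the label. These were picked after their values were seen. Grb2, the adaptor that joins receptors to RAS exchange factors, was at 226.2, 240.2 and 130.5 TPM in WT replicates 1 to 3 and at 211.0, 212.2 and 114.4 TPM in LRP5-null replicates 1 to 3. Replicate 3 of both labels was the low one. Mapk14, the gene of p38 alpha, was at 165.2, 109.9 and 207.9 TPM in the libraries labelled WT and at 171.9, 114.4 and 118.2 TPM in those labelled LRP5-null. Its low and high values fell under both labels. The symbol Map2k7 stood on 2 rows, and the second was at 3.76 TPM in LRP5-null replicate 1 and at or near 0 in the other libraries.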
